A study of Mus musculus with 3 samples.

Results

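The genes of the cartilage matrix other than its collagens, together with Sox9, were examined in RNAseq libraries of the mouse incisor enamel organ, the epithelium that forms enamel. The 8 genes were chosen by symbol, as Acan, Hapln1, Comp, Matn1, Matn2, Matn3, Matn4 and Sox9, and all 8 were found among the 20937 gene symbols of the deposited counts. Each of 3 genotypes gave 1 library, made from complete enamel organs dissected at 4 weeks of age. Stim1 cKO was Stim1 fl/fl Cre+, with deletion of both floxed alleles of the calcium sensor gene Stim1. Stim1 HT was Stim1 fl/wt Cre+, with deletion of one allele, and Stim1 Ctrl was Stim1 fl/fl Cre-, floxed but without Cre. The Cre is AmelX-iCre, which acts in ameloblasts from the secretory stage onwards, so the other cells of a dissected sample keep Stim1. Stim1 HT and Stim1 Ctrl were both used as controls. The question was how the levels of these genes differed between Stim1 cKO and the controls.

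Cartilage matrix is a hydrated gel of aggrecan held within collagen fibrils. Aggrecan, encoded by Acan, carries chondroitin sulfate chains and binds to hyaluronan, and the link protein encoded by Hapln1 fastens this bond. Cartilage oligomeric matrix protein, encoded by Comp, is a thrombospondin of cartilage and tendon. The matrilins are adaptor proteins that join fibrils and proteoglycans; Matn1 and Matn3 are largely restricted to skeletal tissue, whereas Matn2 and Matn4 are found in many connective tissues. SOX9 is the transcription factor that directs chondrocyte differentiation and activates Col2a1, Acan and Hapln1, and it is also made by epithelial progenitors, the dental epithelium among them, and by glia.

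The unit of level is TMM-scaled CPM, the count relative to library size after scaling between libraries (per 1000000), with exact Poisson 95% intervals. These intervals, like all those given here, hold only the error of counting. Total counts were between 20216507 and 28265960, and the limit of detection, a count of 3, equalled between 0.117 and 0.152 CPM. Because each genotype had a single library, no difference here has a replicate check. The p-values compare the Stim1 cKO library with the grouped controls and take their spread from the 2 controls, although these are of different genotypes. The targeted gene, Stim1, was at 186 CPM in Stim1 Ctrl, 129 in Stim1 HT and 72.8 in Stim1 cKO. The label of ameloblasts was met by high Amelx in every library, although its 2070 CPM in Stim1 cKO was 0.103 of the level in Stim1 HT and 0.147 of that in Stim1 Ctrl. Muscle, bone and fibroblast markers were abundant too. Photoreceptor genes were high in the Stim1 cKO library alone, at a summed 930 CPM, while Stim1 HT had 1.68 and Stim1 Ctrl 1.20 CPM. In such bulk libraries, fewer cells of a type and less RNA per cell cannot be told apart.

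The 8 genes did not move as a block. In Stim1 cKO, Sox9 was higher than in both controls, Acan, Hapln1, Matn2 and Matn4 were lower than in both, Matn1 was higher at a low level, and Comp and Matn3 lay between the controls. Levels above both controls were found in 2 of the 8 genes, against 43.6% of all genes tested, and levels below both in 4, against 42.1%. With only 8 genes, these counts cannot show whether the shares differ from those of genes in general. With edgeR's quasi-likelihood test, 0 of the 8 genes passed both thresholds of the study, an adjusted p under 0.01 and a fold change over 2. Over all 18702 genes tested, the same test called 0.0749% as higher and 0.00% as lower. Unadjusted, 4 of the 8 had a p under 0.05, Sox9, Matn4, Matn2 and Hapln1, against 31.9% of all genes. DESeq2, the tool of the study, called the same 4 genes, 1 as higher (background 6.30%) and 3 as lower (background 5.26%). The median log2 fold change of the 8 genes was -0.48, against -0.01 over all genes. This median was -0.85 against Stim1 Ctrl alone and 0.41 against Stim1 HT alone, so its sign rests on the Stim1 Ctrl library.

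**Figure D1:**
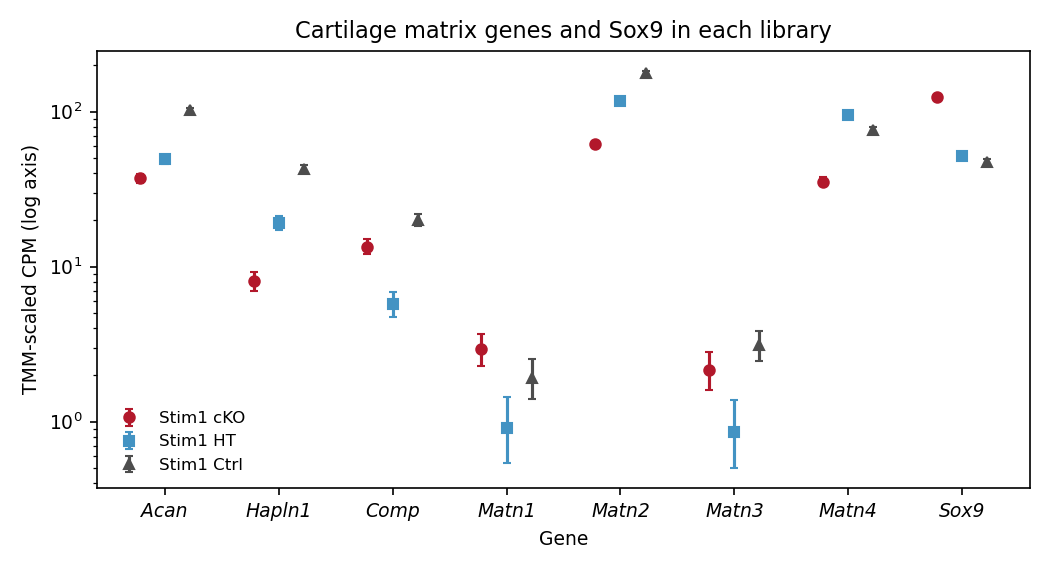
Level of each of the 8 genes in each library, in TMM-scaled CPM on a log axis, with 1 point for each library and exact Poisson 95% intervals of the count as bars. Sox9 is highest in Stim1 cKO, at 124 CPM, while Acan, Hapln1, Matn2 and Matn4 are lowest there.

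Sox9 (chromosome 11, bases 112782224 to 112787760) was counted 1209 times in Stim1 Ctrl, 1016 times in Stim1 HT and 2990 times in Stim1 cKO. These counts equal 47.0 CPM (95% interval 44.4 to 49.7), 51.6 CPM (48.5 to 54.9) and 124 CPM (119 to 128). Sox9 was therefore high in Stim1 cKO and near level in the controls, and it was the only one of the 8 genes that differed over 2-fold, upwards, from each control. Its level in Stim1 cKO was 2.39 times that in Stim1 HT and 2.63 times that in Stim1 Ctrl, whereas Stim1 HT stood at 1.10 times Stim1 Ctrl. EdgeR's quasi-likelihood test gave Sox9 a log2 fold change of 1.33 (adjusted p = 0.0383). At an adjusted p under 0.05 with a fold change over 2, Sox9 was the 1 gene of the 8 to be called, where 6.80% of all genes were called as higher. DESeq2 gave a log2 fold change of 1.30 (SE 0.342) and an adjusted p of 0.00189. The same edgeR test with other scalings or filters gave adjusted p from 0.0167 to 0.0395. All of these fits used the same 3 libraries.

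Sox9 is a gene of several cell types, and the markers beside it moved in different ways. The epithelial keratin gene Krt14 was also higher in Stim1 cKO, at 1190 CPM compared with 464 CPM in Stim1 Ctrl and 573 CPM in Stim1 HT. The number of Sox9 counts for each Krt14 count varied less than the level of either gene. It was 0.101 in Stim1 Ctrl (95% Wilson interval 0.0954 to 0.107) and 0.0901 in Stim1 HT (0.0845 to 0.0960), against 0.104 in Stim1 cKO (0.0998 to 0.108). The intervals of Stim1 HT and Stim1 cKO did not overlap. Krt14 was chosen for this ratio from 11 enamel epithelium markers, which did not move together. Of these, 6 were above both controls, 4 below both and 1 between. Over all genes tested, 43.6% were above both and 42.1% below both. Krt5, the partner keratin gene of Krt14, was at 1.47 times Stim1 HT and 1.38 times Stim1 Ctrl. Cdh1 was at 1.11 and 1.28 times in the same order, and Odam at 3.53 and 9.24 times. Sox9 was at 2.39 and 2.63 times, so its ratio to these genes was not level. The enamel matrix genes Amelx, Ambn and Enam were at 0.103 to 0.166 of the controls, and the 11 markers summed to 24800 CPM in Stim1 Ctrl, 33200 in Stim1 HT and 7200 in Stim1 cKO. Of the 8 glia and myelin markers, 3 were above both controls and 4 below both, and Aqp4, the water channel of astrocytes and Müller glia, was at 51.0 CPM in Stim1 Ctrl, 43.4 in Stim1 HT and 94.5 in Stim1 cKO. Of 8 photoreceptor markers chosen, 3 were not among the symbols of the counts, and the 5 listed were all higher in Stim1 cKO, as above. The part of these cell types in the Sox9 level was not tested.

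Acan (chromosome 7, bases 79053483 to 79115099) was counted 2621 times in Stim1 Ctrl, 969 times in Stim1 HT and 902 times in Stim1 cKO. These equal 102 CPM (98.0 to 106), 49.2 CPM (46.1 to 52.4) and 37.3 CPM (34.9 to 39.8). Stim1 Ctrl was thus the library that stood apart, and Stim1 HT lay nearer to Stim1 cKO. The level of Acan in Stim1 cKO was 0.757 of that in Stim1 HT (0.691 to 0.830, exact binomial interval of the 2 counts) and 0.366 of that in Stim1 Ctrl (0.339 to 0.395). The fit of edgeR put Acan at -1.02 as a log2 fold change (adjusted p = 0.217), and that of DESeq2 at -1.06 (SE 0.506, adjusted p = 0.142).

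Hapln1 (chromosome 13, bases 89539796 to 89611652) had the lowest fitted log2 fold change of the 8 genes. It had 1096 counts in Stim1 Ctrl, 375 in Stim1 HT and 195 in Stim1 cKO, or 42.6 CPM (40.1 to 45.2), 19.0 CPM (17.2 to 21.1) and 8.06 CPM (6.96 to 9.27). The levels descended from Stim1 Ctrl through Stim1 HT to Stim1 cKO, without overlap of the counting intervals. Stim1 cKO was at 0.423 of Stim1 HT and 0.189 of Stim1 Ctrl, and Stim1 HT was at 0.447 of Stim1 Ctrl. Against both controls the log2 fold change in edgeR was -1.94 (adjusted p = 0.0915), and in DESeq2 it was -1.98 (SE 0.595, adjusted p = 0.00814). For each count of Acan there were 0.418 counts of Hapln1 in Stim1 Ctrl (0.390 to 0.449, Wilson) and 0.387 in Stim1 HT (0.344 to 0.436), against 0.216 in Stim1 cKO (0.185 to 0.252). The link protein gene was thus low in Stim1 cKO also relative to aggrecan, a ratio within a library that does not depend on the scaling.

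Comp (chromosome 8, bases 70373558 to 70382066) was counted 515 times in Stim1 Ctrl, 113 times in Stim1 HT and 325 times in Stim1 cKO, equal to 20.0 CPM (18.3 to 21.8), 5.74 CPM (4.73 to 6.90) and 13.4 CPM (12.0 to 15.0). Here it was Stim1 HT that was low, and Stim1 cKO lay between the controls. Comp in Stim1 HT was at 0.287 of its level in Stim1 Ctrl. Against both controls edgeR gave Comp a log2 fold change of 0.06 (adjusted p = 0.963). It was -0.59 against Stim1 Ctrl alone and 1.23 against Stim1 HT alone.

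Matn3 (chromosome 12, bases 8947929 to 8972028) followed the pattern of Comp. It had 80 counts in Stim1 Ctrl, 17 in Stim1 HT and 52 in Stim1 cKO, or 3.11 CPM (2.47 to 3.87), 0.863 CPM (0.503 to 1.38) and 2.15 CPM (1.60 to 2.82). Stim1 HT was again the low library, at 0.278 of Stim1 Ctrl. For each count of Matn3 there were 6.44 counts of Comp in Stim1 Ctrl (5.09 to 8.14, Wilson) and 6.65 in Stim1 HT (4.01 to 11.0), against 6.25 in Stim1 cKO (4.67 to 8.37), so the ratio of these genes differed by less than the counting error. Its log2 fold change in edgeR was 0.10 (adjusted p = 0.944), with -0.54 against Stim1 Ctrl alone and 1.31 against Stim1 HT alone.

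Matn1 (chromosome 4, bases 130944385 to 130955475) was, with Matn3, nearest to the limit of detection in the controls. Its 49 counts in Stim1 Ctrl, 18 in Stim1 HT and 71 in Stim1 cKO equal 1.90 CPM (1.41 to 2.52), 0.914 CPM (0.542 to 1.44) and 2.93 CPM (2.29 to 3.70). The intervals of Stim1 cKO and Stim1 Ctrl overlapped. Stim1 cKO was at 1.54 times Stim1 Ctrl, with an interval of the ratio from 1.06 to 2.26, and at 3.21 times Stim1 HT (1.89 to 5.72). The log2 fold change of 1.05 had an adjusted p of 0.329 in edgeR and of 0.635 in DESeq2.

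Matn2 (chromosome 15, bases 34306677 to 34436273) had the most counts of the matrilins. It had 4592 counts in Stim1 Ctrl, 2320 in Stim1 HT and 1493 in Stim1 cKO, or 178 CPM (173 to 184), 118 CPM (113 to 123) and 61.7 CPM (58.6 to 64.9). The order was that of Hapln1, with the highest level in Stim1 Ctrl and the lowest in Stim1 cKO. Stim1 cKO was at 0.524 of Stim1 HT and 0.346 of Stim1 Ctrl. In edgeR the log2 fold change of Matn2 was -1.26 (adjusted p = 0.0908). In DESeq2 it was -1.30 (SE 0.399, adjusted p = 0.00983), just under the threshold. Its exons share 70 bases with those of 9430069I07Rik on the opposite strand.

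Matn4 (chromosome 2, bases 164389393 to 164405160) was counted 1949 times in Stim1 Ctrl, 1866 times in Stim1 HT and 855 times in Stim1 cKO. These equal 75.7 CPM (72.4 to 79.2), 94.7 CPM (90.5 to 99.1) and 35.3 CPM (33.0 to 37.8). Unlike the other lower genes, Matn4 was higher in Stim1 HT than in Stim1 Ctrl, at 1.25 times its level (1.17 to 1.33). Stim1 cKO was at 0.373 of Stim1 HT and 0.466 of Stim1 Ctrl, so both gaps to the knockout were larger than the gap between the controls. EdgeR put the log2 fold change of Matn4 at -1.27 (adjusted p = 0.0579) and DESeq2 at -1.30 (SE 0.362, adjusted p = 0.00363). The exons of Matn4 share 149 bases with those of Rbpjl on the opposite strand, and whether the counting used strand is not given in the sources used here.

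**Figure D2:**
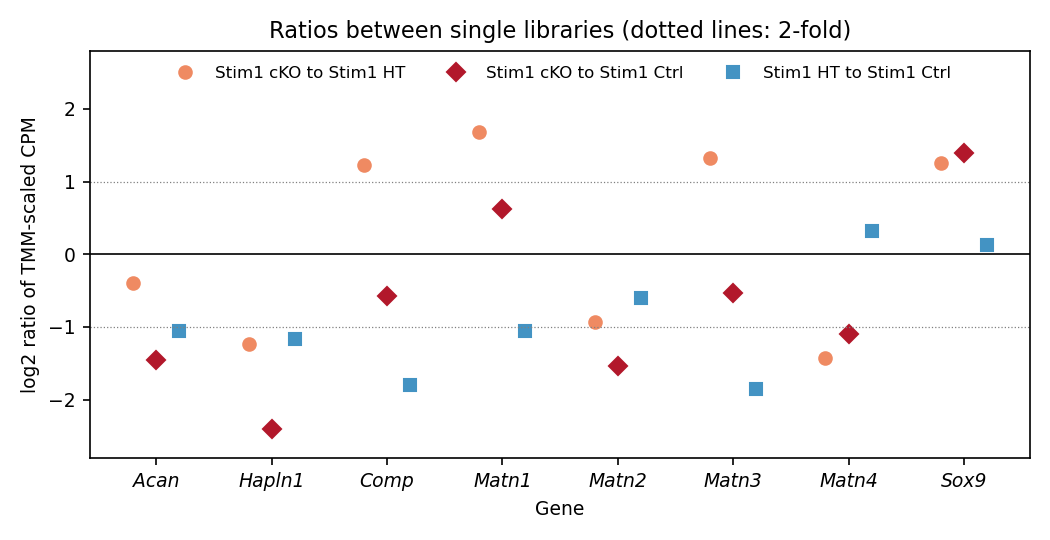
Log2 ratios of TMM-scaled CPM between single libraries for the 8 genes, with dotted lines at a 2-fold difference and no error bars, since each genotype is 1 library. For Sox9 and Matn4 the ratio of Stim1 HT to Stim1 Ctrl is near 0 and both ratios of Stim1 cKO lie past 2-fold, whereas for Comp and Matn3 the low library is Stim1 HT.

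The controls differed from each other in this group of genes. Between Stim1 HT and Stim1 Ctrl, 5 of the 8 genes differed over 2-fold, against 13.5% of all genes tested, and 6 of the 8 were lower in Stim1 HT. Where the mean count was at least 50, the share was 3 of 6 members against 8.16% of all such genes. The 5 genes were Acan, Hapln1, Comp, Matn1 and Matn3, each lower in Stim1 HT, with log2 ratios from -1.85 for Matn3 to -1.05 for Acan. Counting intervals of the ratio of Stim1 HT to Stim1 Ctrl included 2-fold for Acan (0.448 to 0.520), Hapln1 (0.396 to 0.503) and Matn1 (0.263 to 0.839). Those of Comp (0.232 to 0.352) and Matn3 (0.154 to 0.473) lay past it. Sox9 (log2 ratio 0.13), Matn4 (0.32) and Matn2 (-0.60) differed less. Each control was 1 library, so this difference could not be tested.

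The make-up of the group therefore shifted towards Sox9. The 8 genes summed to 471 CPM in Stim1 Ctrl, 340 in Stim1 HT and 284 in Stim1 cKO, and without Sox9 the sums were 424, 288 and 161 CPM. Of the counts of the 8 genes, Sox9 took 9.98% in Stim1 Ctrl (95% Wilson interval 9.46 to 10.5%) and 15.2% in Stim1 HT (14.3 to 16.1%), against 43.4% in Stim1 cKO (42.3 to 44.6%). Acan took 21.6% in Stim1 Ctrl, 14.5% in Stim1 HT and 13.1% in Stim1 cKO. Matn2 was the largest part in both controls, at 37.9% in Stim1 Ctrl and 34.7% in Stim1 HT, and took 21.7% in Stim1 cKO.

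**Figure D3:**
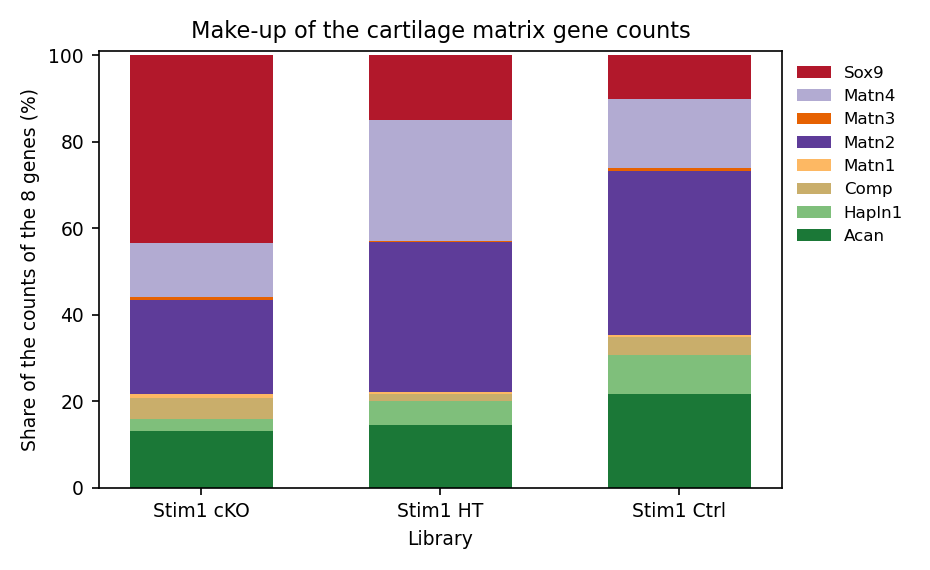
Share of each gene in the summed counts of the 8 genes, in percent, with 1 stacked bar for each library. The Sox9 segment takes 9.98% in Stim1 Ctrl, 15.2% in Stim1 HT and 43.4% in Stim1 cKO.

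Levels of different genes were compared as CPM per kilobase of merged exon. On this scale Sox9 led in Stim1 cKO at 29.9, followed by Matn2 at 9.85, Matn4 at 6.83, Acan at 4.99 and Comp at 4.53, the last pair with overlapping counting intervals. Matn1 (1.47) and Hapln1 (1.36) overlapped as well, and Matn3 was lowest at 0.713. In Stim1 HT the order began with Matn2 at 18.8 and Matn4 at 18.3 CPM per kilobase, which overlapped, before Sox9 at 12.5, Acan at 6.59, Hapln1 at 3.23 and Comp at 1.93. In Stim1 Ctrl, Matn2 stood at 28.5, Matn4 at 14.6 and Acan at 13.6 CPM per kilobase, the latter 2 overlapping, and Sox9 came next at 11.4. Matn1 and Matn3 were the lowest in both controls, at 0.286 to 1.03 CPM per kilobase, and overlapped in each. Hapln1 stood above Comp in Stim1 HT and below it in Stim1 cKO, and in Stim1 Ctrl their intervals overlapped, at 7.22 and 6.75 CPM per kilobase.

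Cartilage collagens were set beside these genes because SOX9 activates them in chondrocytes. All 7 had a negative log2 fold change, with a median of -2.34 in edgeR. Col2a1, of the type II collagen fibril, was at 502 CPM in Stim1 Ctrl, 352 in Stim1 HT and 23.3 in Stim1 cKO, or -4.19 as a log2 fold change (adjusted p = 0.0173, edgeR). Col9a1, of the type IX collagen on its surface, was at 56.7, 83.3 and 5.87 CPM in the same order, and Col11a1, of type XI collagen, at 887, 544 and 136 CPM. None of the 7 passed an adjusted p under 0.01 in edgeR. An unadjusted p under 0.05 was found for 6, against 31.9% of all genes tested. DESeq2 called 6 as lower, against 5.26% of all genes. At an adjusted p under 0.05, edgeR called 5 of the 7 as lower, where 2.88% of all genes were called as lower. The gene that was not below both controls was Col10a1, of hypertrophic cartilage, whose 15.4 CPM in Stim1 cKO lay below the 62.0 CPM of Stim1 Ctrl and above the 8.38 CPM of Stim1 HT.

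Relative to Col2a1, Sox9 and Acan both stood higher in Stim1 cKO. For each count of Col2a1 there were 0.0935 counts of Sox9 in Stim1 Ctrl (95% Wilson interval 0.0882 to 0.0992) and 0.146 in Stim1 HT (0.137 to 0.156), against 5.29 in Stim1 cKO (4.84 to 5.79). The corresponding number for Acan was 0.203 in Stim1 Ctrl (0.194 to 0.211) and 0.140 in Stim1 HT (0.131 to 0.149), against 1.60 in Stim1 cKO (1.44 to 1.77). For each count of Acan, there were 0.461 counts of Sox9 in Stim1 Ctrl (0.431 to 0.494) and 1.05 in Stim1 HT (0.960 to 1.14), against 3.31 in Stim1 cKO (3.08 to 3.57). Sox9, Acan and Col2a1 thus did not keep a fixed ratio to each other across the 3 libraries. The ratio of Comp to Matn3, given above, differed by less than the counting error.

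**Figure D4:**
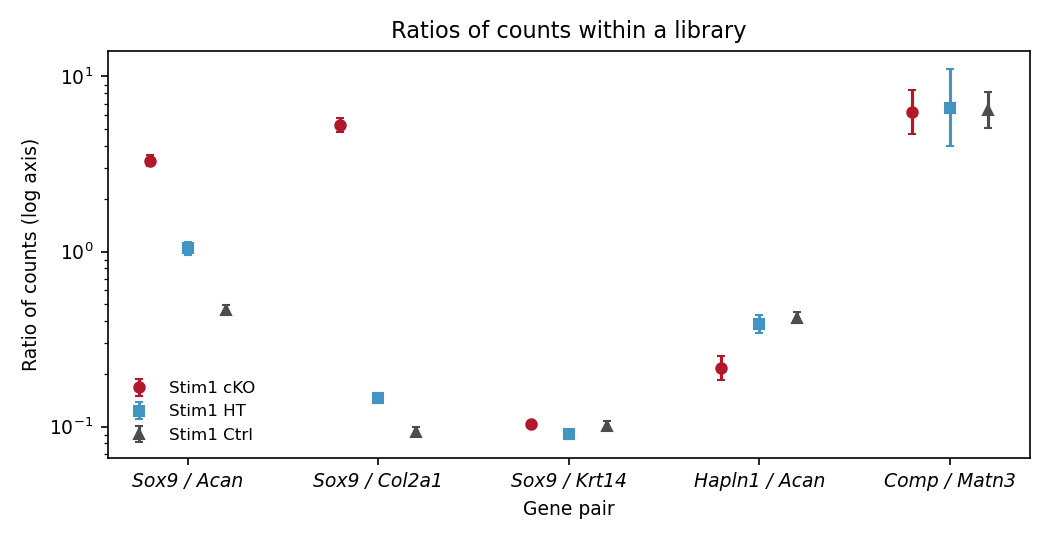
Ratio of the counts of 2 genes within each library on a log axis, with 95% Wilson intervals as bars. Sox9 to Krt14 and Comp to Matn3 vary less across the libraries than Sox9 to Col2a1, which is 0.0935 in Stim1 Ctrl, 0.146 in Stim1 HT and 5.29 in Stim1 cKO. Krt14 was chosen from 11 enamel epithelium markers that did not move together.

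The other genes of the hyaluronan and proteoglycan network were split. Of the 9 tested, 3 had a positive and 6 a negative log2 fold change, with a median of -0.29. Vcan, which encodes versican, the large hyaluronan-binding proteoglycan of soft connective tissue, was at 304 CPM in Stim1 Ctrl, 218 in Stim1 HT and 63.4 in Stim1 cKO, a log2 fold change in edgeR of -2.04 (adjusted p = 0.0380). Ncan, which encodes neurocan, a proteoglycan of nervous tissue, was at 61.9 CPM in Stim1 cKO while Stim1 HT had 4.47 and Stim1 Ctrl 1.67 CPM (log2 fold change in edgeR 4.35, adjusted p = 0.0218). Bcan, of brevican, was at 4.94 CPM in Stim1 Ctrl, 8.22 in Stim1 HT and 19.1 in Stim1 cKO (adjusted p = 0.0915 in edgeR and 0.0609 in DESeq2). Of the 4 proteoglycans of the aggrecan family, DESeq2 called Vcan as lower and Ncan as higher, and it called neither Acan nor Bcan. Over all genes it called 5.26% as lower and 6.30% as higher. Cd44, a hyaluronan receptor, was at 235 CPM in Stim1 Ctrl, 181 in Stim1 HT and 170 in Stim1 cKO. Hapln2 did not pass the filter on low counts, with 2 counts in Stim1 Ctrl, 3 in Stim1 HT and 7 in Stim1 cKO.

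Among the thrombospondins, the family of Comp, all 4 other genes lay below both controls in Stim1 cKO (42.1% of all genes did), with log2 fold changes from -1.73 for Thbs2 to -0.70 for Thbs1. DESeq2 called 2 of them as lower, Thbs2 and Thbs3, against 5.26% of all genes, while in edgeR the adjusted p of the 4 ran from 0.0877 to 0.189. Comp, which lay between the controls, did not follow these genes.

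Of the SOX genes that act with Sox9, Sox5 was at 6.18 CPM in Stim1 Ctrl, 5.18 in Stim1 HT and 26.4 in Stim1 cKO, a log2 fold change in edgeR of 2.22 (adjusted p = 0.0298). Sox6, its partner in chondrocytes, was at 54.9 CPM in Stim1 Ctrl, 31.6 in Stim1 HT and 19.1 in Stim1 cKO, and edgeR gave -1.18 (adjusted p = 0.123). Sox8 and Sox10, the other SOX genes of the same group as Sox9, had log2 fold changes of -1.29 and -0.38. Sox10 was at 0.994 of its level in Stim1 HT (0.887 to 1.11), so it was level with that control. Sox5 was the 1 gene of these 4 that DESeq2 called, as higher, against 6.30% of all genes. EdgeR called 0 of the 4 at an adjusted p under 0.01.

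Of 14 further genes of chondrocytes, 1 was not among the symbols of the counts. Among the 13 listed, 5 had a positive and 8 a negative log2 fold change, with a median of -0.32. Epyc, which encodes a small proteoglycan of growth cartilage, was at 8.24 CPM in Stim1 Ctrl, 18.3 in Stim1 HT and 1.74 in Stim1 cKO. Cilp, of the cartilage intermediate layer, was at 76.0, 37.9 and 13.4 CPM in the same order. Cytl1 was at 56.6 CPM in Stim1 cKO while Stim1 HT had 5.58 and Stim1 Ctrl 2.37 CPM. DESeq2 called these 3 genes, Cytl1 as higher and the other two as lower, against 6.30% and 5.26% of all genes. EdgeR called 0 of the 13 at an adjusted p under 0.01. At an unadjusted p under 0.05 it found 5, a share near the 31.9% of all genes. Chad and Ucma had log2 fold changes of 0.90 and 0.84, so the further chondrocyte genes gave no single direction.

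Chondroitin sulfate synthesis supplies the chains of aggrecan. Of its 15 genes, 12 were below both controls in Stim1 cKO and 3 above both, against the 42.1% and 43.6% of all genes, with a median log2 fold change of -0.78. Chpf and Chsy1, which polymerize the chain, were at -1.73 (adjusted p = 0.0348) and -1.15 (adjusted p = 0.0574) in edgeR. DESeq2 called both as lower, 2 of the 15 genes beside 5.26% of all genes. The 3 above both were Xylt1, at 9.05 CPM against 3.38 in Stim1 Ctrl and 1.52 in Stim1 HT, the sulfate transporter gene Slc26a2, at 98.4 CPM against 65.1 and 52.3, and Papss2, which makes the sulfate donor, at 58.9 CPM against 51.7 and 55.4. None of the 3 was called by either tool (edgeR adjusted p from 0.117 to 0.718), and the ratio of Papss2 to Stim1 HT, 1.06, had an interval that includes 1 (0.982 to 1.15). Of the 5 ADAMTS genes whose proteins cleave aggrecan or related proteoglycans, 3 were below both controls. Adamts5 was above both, at 71.7 CPM in Stim1 Ctrl, 48.6 in Stim1 HT and 78.4 in Stim1 cKO, and DESeq2 called 0 of the 5.

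**Figure D5:**
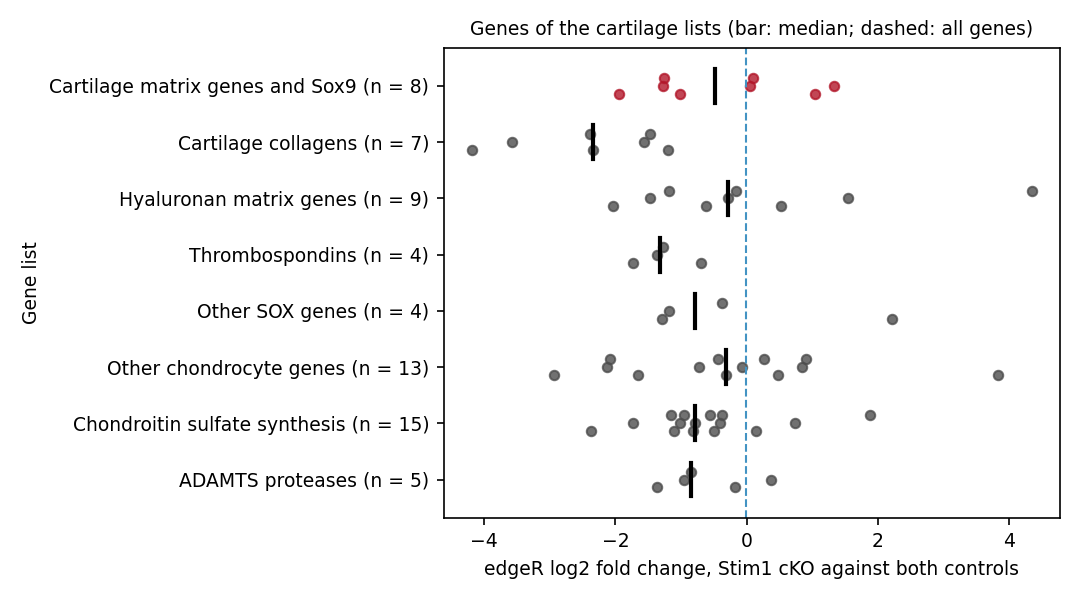
EdgeR log2 fold change of Stim1 cKO against both controls for each tested gene of the 8 lists, with the median of each list as a bar and the median of all genes, -0.01, as a dashed line. The 8 cartilage matrix genes spread from -1.94 to 1.33, whereas all 7 cartilage collagens lie below 0, with a median of -2.34.

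Across these 7 further lists, 57 genes were tested, and edgeR called 0 of them at an adjusted p under 0.01, with 32 at an unadjusted p under 0.05 (31.9% of all genes). DESeq2 called 3 as higher (6.30% of all genes) and 13 as lower (5.26%). Markers of other connective tissue were lower in the same library. The 8 fibroblast markers summed to 78800 CPM in Stim1 Ctrl, 50700 in Stim1 HT and 36200 in Stim1 cKO. All 8 were below both controls, against 42.1% of all genes tested. The 5 tendon markers, also all below both controls, summed to 754, 479 and 154 CPM in that order, and the 8 skeletal muscle markers, likewise, to 19700, 16700 and 3430 CPM. Bone and odontoblast markers summed to 4660 CPM in Stim1 Ctrl, 3830 in Stim1 HT and 2780 in Stim1 cKO. Of these 8, 5 were below both controls, 1 above both and 2 between, so they did not all move together. No defining marker of these 4 tissues was at or under 3 counts in any library, and the part of these tissues in the levels of the cartilage matrix genes was not tested.

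Genes with the most similar pattern were found by the distance of the log2 ratios of Stim1 cKO to Stim1 Ctrl and of Stim1 HT to Stim1 Ctrl, over 3 libraries and the 14977 genes whose mean count reached 50. The nearest to Sox9 were Pabpn1 (distance 0.0126) and Dsg2 (0.0191), and 34 genes lay within 0.1. Those nearest to Acan were Ston1 (0.0199) and Med12 (0.0250), with 8 genes within 0.1. Matn2 was nearest to Chrdl1 (0.0245) and Sema3g (0.0250), and Matn4 to Rnls (0.00390) and Rpl15 (0.00453). Comp had 1 gene within that distance, Klf12 (0.0904), followed by Sprr1b (0.112), and Hapln1 had 0, its nearest being Gm572 (0.166) and Cilp (0.185). With 3 libraries such likeness rests on 2 ratios.

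The bases before the start site are shown for Acan and Matn4, which were among the genes below both controls in Stim1 cKO. Windows of 250 bases upstream were taken from RefSeq on GRCm38.p6 and were at hand for 5 of the 8 genes, Acan, Matn1, Matn3, Matn4 and Hapln1. Capitals mark CpG dinucleotides, and the sequences run 5′ to 3′ on the strand of the gene. That of Acan lies at chr7:79052976-79053225 on the plus strand, and the outer of 2 windows of Matn4 at chr2:164405161-164405410 on the minus strand.
Acan: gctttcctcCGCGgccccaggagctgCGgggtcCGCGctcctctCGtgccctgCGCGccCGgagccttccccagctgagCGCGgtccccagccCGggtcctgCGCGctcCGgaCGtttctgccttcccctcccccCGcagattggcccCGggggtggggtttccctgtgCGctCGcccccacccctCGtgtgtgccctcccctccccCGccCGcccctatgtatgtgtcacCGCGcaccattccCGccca
Matn4: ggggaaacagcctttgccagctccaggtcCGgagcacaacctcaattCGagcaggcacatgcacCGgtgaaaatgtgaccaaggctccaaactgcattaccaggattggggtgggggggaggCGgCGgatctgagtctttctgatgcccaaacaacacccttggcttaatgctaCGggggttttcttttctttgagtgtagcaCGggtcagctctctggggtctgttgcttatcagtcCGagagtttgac
The window of Acan held 26 CpG dinucleotides at 74.4% GC and that printed for Matn4 8 at 54.4% GC, against medians of 6 and 52.0% over 27025 windows of the same length. The other window of Matn4, at chr2:164404819-164405068, held 14 at 62.8% GC. The window of Hapln1, also below both controls but not printed, held 2 at 54.4% GC. That of Matn1 held 4 at 62.0% GC and that of Matn3 14 at 65.2% GC. The SOX core motifs ACAAAG and ACAATG, searched on both strands, were found in 25.5% of the 27025 windows and in 0 of the 5 genes. That says only that these letters are not in these windows.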

How the data were processed

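The 3 libraries, 1 for each genotype, hold RNA of dissected incisor enamel organs at 4 weeks of age. The authors removed low-quality reads, aligned the trimmed paired-end reads with STAR, and deposited raw counts per gene symbol without normalization. The genome build, annotation, counting tool and strand setting are not given in the sources used here. The study's methods name a NEBNext directional kit and the labels a SMARTER kit. Every gene listed has at least 1 count in each library.

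Stim1 cKO was tested against the grouped controls with edgeR 4.0.16 in R 4.3.3 (TMM factors, filterByExpr, 18702 of 20937 genes kept, quasi-likelihood test, Benjamini-Hochberg adjustment over all genes tested). The residual degrees of freedom were 1 and the common dispersion 0.106. Calls required an adjusted p under 0.01 and a fold change over 2. DESeq2 1.42.0 was the main alternative. The fits were tested on simulated data with 200 changed genes. Positions and merged exon lengths came from GENCODE M21 on GRCm38. All 8 genes and the genes of the lists were to be named, with Stim1 and the 2 genes of nearest pattern to each of the 8 whose mean count was at least 50. The genes, the lists and the within-library ratios were chosen with earlier results of these data known. Python 3.11.15, pandas 2.3.3 and scipy 1.17.1 were used.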

Additional observations from a re-analysis of the deposited data

How the results depend on the processing

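The number of the 8 genes called was 0 with RLE, upper-quartile or library size scaling, with mitochondrially encoded and enamel matrix genes left out of the scaling, without a filter and with a mean of at least 50 counts. It was 4 with DESeq2 and 1 at an adjusted p under 0.05. For the genes of the other cartilage lists it was 16 of 58 with DESeq2 (which gave Hapln2 and Has1 no adjusted p), 5 of 58 without a filter and 10 of 57 at an adjusted p under 0.05. Calls over all genes also rose under these settings, from 14 as higher and 0 as lower in the main test. DESeq2 called 6.30% as higher and 5.26% as lower among the 17283 genes to which it gave an adjusted p. Without a filter, 687 and 220 of 20937 genes were called, and at an adjusted p under 0.05 the shares were 6.80% and 2.88%. The median log2 fold change of the 8 genes ranged from -0.85 without Stim1 HT to 0.41 without Stim1 Ctrl, and this was the one reversal of the median. Comp and Matn3 reversed to -0.59 and -0.54 without Stim1 HT, and were at 1.23 and 1.31 without Stim1 Ctrl. With 1 control left out no residual degrees of freedom remain, so those are values with no test and no count of calls could be given. The cause of these changes was not tested. Scaling by library size moved the median of all genes to 0.25 and upper-quartile scaling to 0.12; no member changed direction under either. With a mean of at least 50 counts, 6 of the 8 genes were left, and their median was -1.03. No paired analysis was possible because each genotype has 1 library. Counting error limits Matn1 and Matn3, with under 100 counts in each library.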
